A study of Mus musculus with 6 samples.

Results

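The collagen genes were examined in RNA sequencing of the mouse cortex at the embryonic stage E13.5, in embryos with and without a conditional deletion of Ybx1. Members were all rows of the deposited table whose symbol has the form of a collagen chain (Col, a type number, a, a chain number). This gave 44 of 17348 listed genes, which is also the number of collagen genes that RefSeq annotates in GRCm38.p6. The chains were split by structural type into 11 fibrillar, 8 basement membrane, 4 transmembrane, 9 FACIT (fibril-associated), 6 beaded filament and 6 other collagens.

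Libraries labelled cKO came from embryos carrying Nestin-Cre and the Ybx1 fl/fl alleles, in which Cre removes a run of exons of Ybx1. Libraries labelled WT came from control littermates, which the study describes both as wild type and as Ybx1 fl/fl without Cre. Floxed founders were made in C57BL/6J. Nestin-Cre acts in the neural lineage, and most fibroblasts, epidermal cells and vessel cells of a cKO embryo lie outside that lineage. There were 3 libraries per genotype, and neither the sex of the embryos nor pooling is given in the sources used here. The p-values therefore measure the spread between these samples.

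Collagens are secreted or membrane-bound proteins of 3 chains wound into a triple helix. Fibrillar types form the banded fibrils of skin, bone and connective tissue, type IV forms the sheet of every basement membrane, and transmembrane types span the cell surface with a collagenous outer part. The embryonic cortex holds few fibrils: its collagen protein lies mainly in the basement membranes of blood vessels and of the pial surface, while the meninges and the skin above them are rich in fibrils. The values below are of transcripts and not of protein. Fibrillar chains, Col2a1 among them, took 42.0% to 44.0% of collagen TPM in the 5 libraries other than cKO replicate 3.

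Library totals were between 15907486 and 16282921 estimated counts, and 15677 to 16296 genes were detected, with cKO replicate 3 at the top of that range. Values per library are CPM (counts scaled to a common library total, with TMM factors), and 3 counts correspond to 0.181 to 0.188 CPM. Ybx1 (Entrez gene 22608) was at 1021, 528 and 1220 CPM in the libraries labelled WT replicates 1, 2 and 3 and at 83.1, 117 and 147 CPM in cKO replicates 1, 2 and 3. The genotypes did not overlap, but the library labelled WT replicate 2 was lower than its WT counterparts. The log2 fold change of Ybx1 was -3.00 (SE 0.33) with an adjusted p of 0.128 by edgeR's quasi-likelihood test, and -3.28 with an adjusted p of 0.0206 without that library. These values check the labels only.

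Ybx1 is named after the Y-box, a promoter element holding an inverted CCAAT, so collagen promoters were searched for CCAAT and its reverse complement ATTGG in the 250 bases before the start. Windows from RefSeq (GRCm38.p6) were found for 35 of the 44 collagens. Shown here, 5′ to 3′ on the strand of the gene with the motif in capitals, are 3 collagens that stood apart in cKO replicate 3 and 4 abundant ones that did not.

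Col1a2 (chr6:4505497-4505526, + strand): aaaagaatggaaCCAATttaagaagccccg
Col17a1 (chr19:47692056-47692085, - strand): aagtgtcagataATTGGaagggtggagtga
Col7a1 (chr9:108953336-108953365, + strand): cATTGGtcactctaactagaaagcagtcaa
Col11a1 (chr3:114030449-114030478, + strand): gggaggcctgtgATTGGgtatgaccttcag
Col4a1 (chr8:11312954-11312983, - strand): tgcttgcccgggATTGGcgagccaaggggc
Col4a2 (chr8:11312761-11312790, + strand): ccgaggagctccCCAATttgttggcgctgc
Col18a1 (chr10:77166723-77166752, - strand): cgcgttggagacATTGGagagaggacgaga

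The first base of the motif lay between 31 bases (Col17a1) and 249 bases (Col7a1) before the start in the 7 genes shown, at 109 in Col1a2 and 32 in Col4a2. At least 1 of the strings was present in 34.2% of 38 collagen windows and in 33.85% of all 32851 windows. They were found in 3 of 11 collagens that stood apart in cKO replicate 3 and in 10 of 24 others. A match is a description of these letters and not a binding site.

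Most collagens were found throughout, though a smaller share of them than of genes in general. A count of at least 10 in each of the 6 libraries was reached by 28 of 44 collagens, below the 73.9% of all listed genes. A different set stood apart in a single library: 14 collagens were at least 3 times higher in cKO replicate 3 than in the highest of the other 5 libraries (each taken at no less than 3 counts), against 2.28% of all listed genes. Counted in the same way, 0 collagens stood apart in each of the other 5 libraries, against 0.0231% of all listed genes in WT replicate 1, 0.00576% in WT replicates 2 and 3, 0.0115% in cKO replicate 1 and 0.0288% in cKO replicate 2. The sets overlapped in 8 collagens, 20 were present throughout without standing apart, 6 stood apart without being present throughout, and 10 did neither. Fewer cells of a type and less RNA per cell cannot be told apart in these bulk samples.

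By structural type, the collagens that stood apart in cKO replicate 3 were 4 of 11 fibrillar, 2 of 4 transmembrane and 1 of 9 FACIT collagens. A further 3 of 6 beaded filament and 4 of 6 other collagens did so, and 0 of 8 basement membrane collagens. The share of all listed genes was 2.28%, and with 8 genes 0 is near that share. Just inside the limit were Col23a1 at a ratio of 3.15 and Col24a1 at 3.22. Just outside it were the type V chains Col5a2 at 2.86 and Col5a1 at 2.62, while the third type V chain, Col5a3, had 1 to 5 counts in each library and a ratio of 0.96. In all, 33 of 44 collagens had their highest value in cKO replicate 3, against 19.5% of all listed genes.

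**Figure D1:**
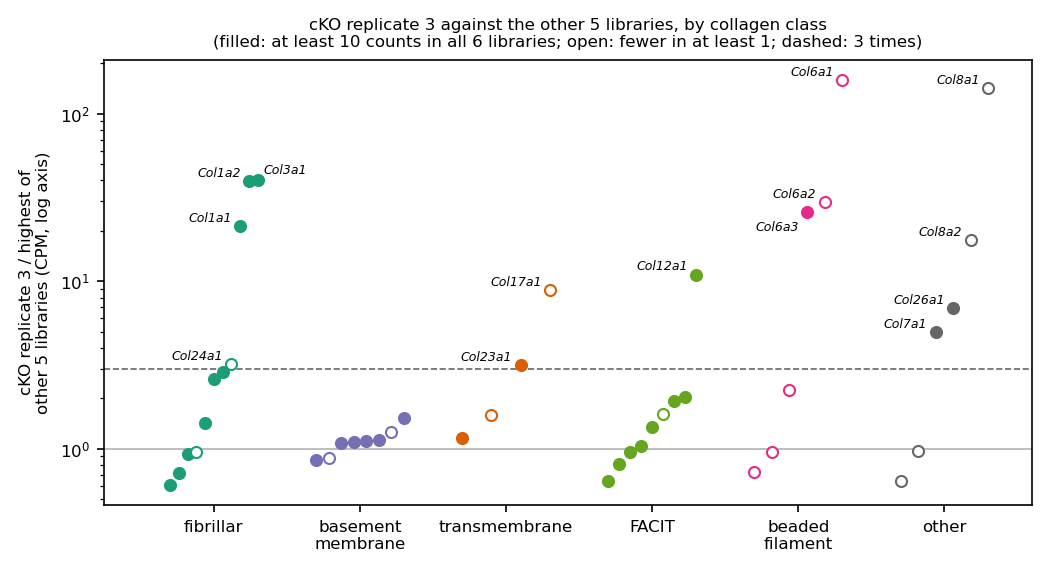
Ratio of the level in cKO replicate 3 to the highest of the other 5 libraries (CPM, log axis) for each of the 44 collagens, by structural class; filled points had at least 10 counts in all 6 libraries, open points did not, and the dashed line marks 3 times. All 8 basement membrane collagens lie below the line, while Col6a1, Col8a1, Col3a1 and Col1a2 lie far above it; the ratios of Col8a1 and Col8a2 are taken against the level of 3 counts.

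Some fibrillar collagens stood apart in cKO replicate 3 and others did not. Col2a1, the chain of cartilage fibrils that is also made in the early neuroepithelium, was the most abundant collagen by mean TPM and was at 176, 131 and 140 CPM in WT replicates 1, 2 and 3 and at 141, 134 and 126 CPM in the cKO libraries. The genotypes overlapped, with means of 149 ± 24.0 CPM (SD, n = 3) in WT and 134 ± 7.67 CPM (SD, n = 3) in cKO. Col11a1, which copolymerises with type II collagen, was at 34.2, 31.8 and 31.8 CPM in WT and at 26.9, 29.6 and 32.0 CPM in cKO. Neither chain was high in cKO replicate 3.

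Col3a1, the homotrimer of loose connective tissue (chr1:45311538-45349706), was at 4.15, 3.90 and 3.25 CPM in WT and at 3.37, 4.52 and 181 CPM in cKO. Without cKO replicate 3 the genotypes overlapped, and that library was 40.0 times above the highest of the others. Col1a2, a chain of the main fibril of skin and bone (chr6:4505618-4541543), was at 1.38, 0.81 and 1.44 CPM in WT and at 1.06, 3.64 and 144 CPM in cKO. Its partner chain Col1a1 (chr11:94936224-94953042), chosen for its p-value, was at 1.63, 1.36 and 2.19 CPM in WT and at 1.37, 6.02 and 128 CPM in cKO. Both type I chains had their second highest value in cKO replicate 2, at 96 counts for Col1a1 against 22 to 35 in the 4 libraries below it. The values in cKO replicate 3 rested on 2129 counts for Col1a1, 2384 for Col1a2 and 2995 for Col3a1.

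Neighbouring genes separated in that library. Col3a1 and Col5a2, a chain of the type V fibrils that nucleate type I fibrils, lie 24624 bases apart on chromosome 1, and their TPM ratio was 0.18 to 0.31 in the other 5 libraries and 3.41 in cKO replicate 3. Col5a2 itself was at 19.3, 19.0 and 22.2 CPM in WT and at 12.98, 20.7 and 63.5 CPM in cKO.

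Most basement membrane collagens were well detected in all 6 libraries. The class had 0 of 8 members apart in cKO replicate 3, which with 8 genes is near the 2.28% of all listed genes. Of the 8, 6 had their highest value in that library, against 19.5% of all listed genes. Col18a1, the proteoglycan collagen whose end fragment is endostatin, was at 86.4, 70.4 and 70.9 CPM in WT and at 73.6, 74.8 and 133 CPM in cKO. It was the member of this class with the highest ratio in cKO replicate 3, at 1.54. Col4a1, whose chain joins Col4a2 in the network of all basement membranes, was at 126, 75.5 and 88.5 CPM in WT and at 95.97, 101 and 137 CPM in cKO. Col4a2 was at 79.8, 47.3 and 54.3 CPM in WT and at 58.4, 62.1 and 88.7 CPM in cKO. Both chains had their higher values in WT replicate 1 and cKO replicate 3, and the genotypes overlapped.

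Col4a1 and Col4a2 are transcribed head to head on chromosome 8 and overlap by 85 bases in the annotation. Whether counting used strand is not given in the sources used here, so reads in that overlap could have gone to either gene. The TPM ratio of Col4a1 to Col4a2 was 1.53, 1.56 and 1.59 in WT and 1.60, 1.58 and 1.51 in cKO, a narrower spread than that of either chain. Col4a5 was at 25.8, 29.7 and 26.9 CPM in WT and at 21.8, 27.7 and 32.3 CPM in cKO. Its X-linked neighbour Col4a6, with which it forms a network in some epithelial basement membranes, was lower, with a Col4a5 to Col4a6 ratio of TPM between 2.86 and 4.04. Col4a3 and Col4a4, the partner chains known from the kidney filter, were near the limit of detection at 0.38 to 1.03 CPM and 0.37 to 1.36 CPM.

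**Figure D2:**
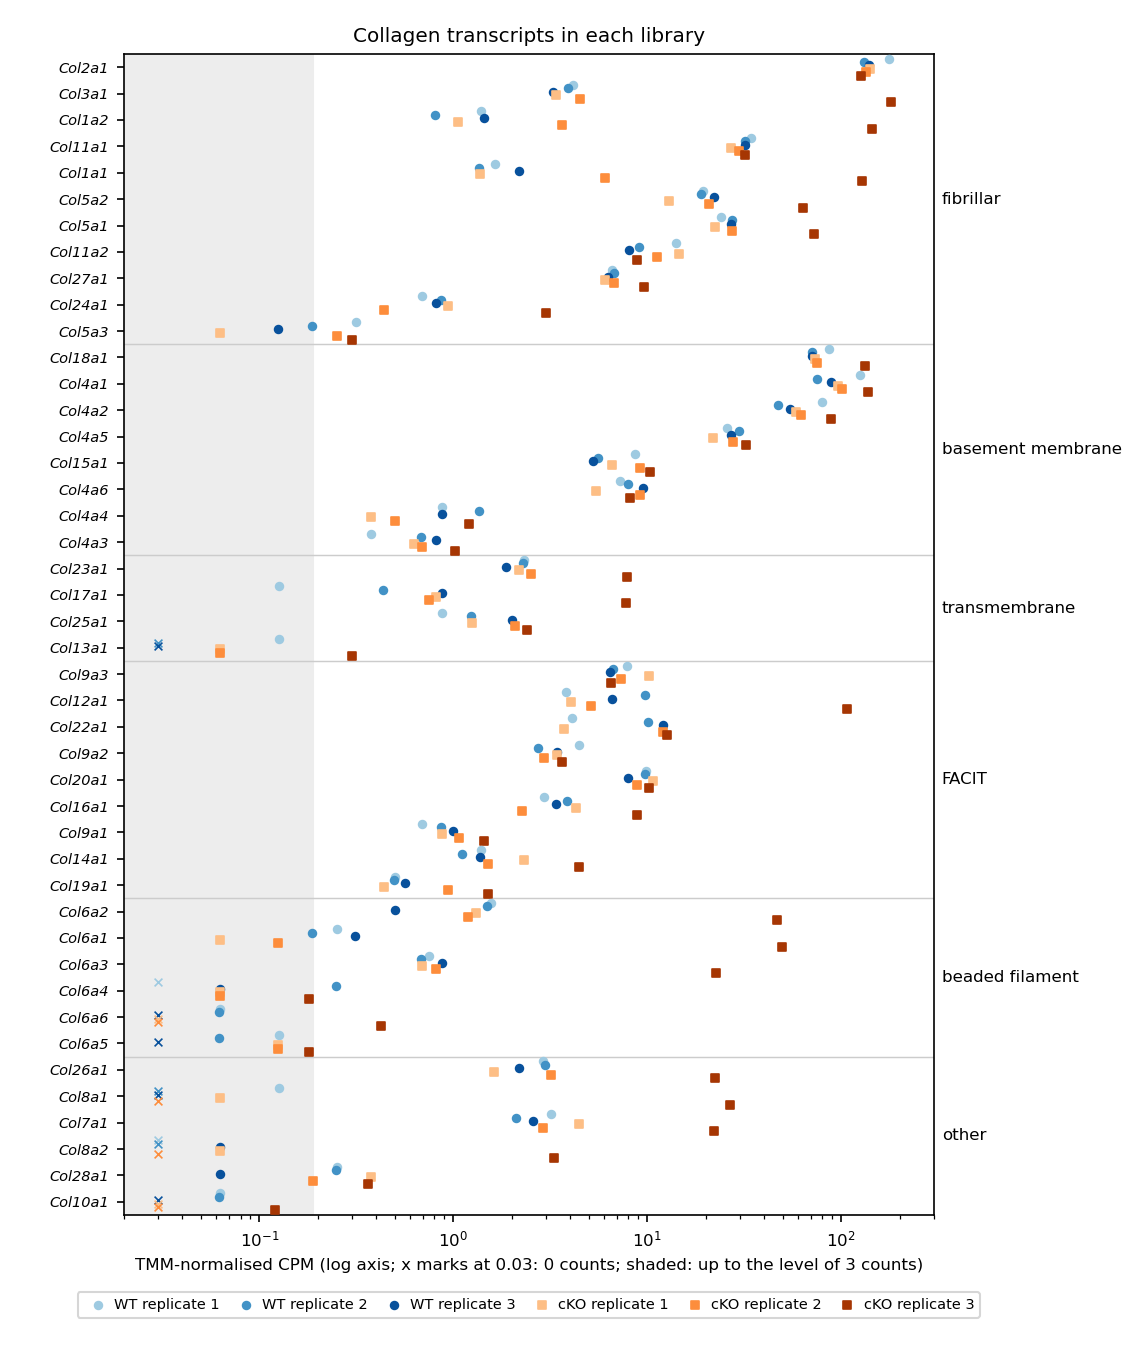
Level of each of the 44 collagens in each library (TMM-normalised CPM, log axis; circles WT, squares cKO, crosses 0 counts), grouped by class and ordered by mean TPM; the grey area reaches to the level of 3 counts. The points of cKO replicate 3 lie to the right of the other 5 for Col3a1, Col1a2, Col1a1, Col12a1, Col6a1, Col6a2, Col6a3 and Col8a1 and among or near them for the basement membrane chains.

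Transmembrane collagens were at low levels. Col23a1, a cell-surface collagen, was at 2.32, 2.29 and 1.88 CPM in WT and at 2.18, 2.51 and 7.90 CPM in cKO, with cKO replicate 3 apart and the other 5 libraries close together. Col17a1, the collagen of the hemidesmosomes that fix epidermal cells to their basement membrane, was at 0.13, 0.43 and 0.88 CPM in WT and at 0.81, 0.75 and 7.78 CPM in cKO. That is 129 counts in cKO replicate 3 against 2 to 14 in the others. Col25a1, a neuronal transmembrane collagen, did not share the pattern: it was at 0.88, 1.24 and 2.0 CPM in WT and at 1.25, 2.07 and 2.41 CPM in cKO. Col13a1 had 2, 0 and 0 counts in WT and 1, 1 and 5 in cKO, too few for a comparison.

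FACIT collagens, which sit on the surface of fibrils, held 1 member that stood apart. Col12a1, found in dense connective tissue, was at 3.83, 9.73 and 6.56 CPM in WT and at 4.06, 5.14 and 107 CPM in cKO. Col9a3, a chain of the type IX collagen that decorates type II fibrils, was at 7.85, 6.63 and 6.44 CPM in WT and at 10.2, 7.34 and 6.52 CPM in cKO, and cKO replicate 3 was among its lower values. Col22a1 was at 4.08, 10.1 and 12.1 CPM in WT and at 3.74, 12.1 and 12.6 CPM in cKO. It was low in both libraries numbered 1, whatever the genotype.

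Beaded filament and other collagens showed the widest gaps. Type VI collagen forms microfibrils around connective tissue cells. Its chain Col6a2 was at 1.57, 1.49 and 0.50 CPM in WT and at 1.31, 1.19 and 46.8 CPM in cKO. Col6a1 was at 0.25, 0.19 and 0.31 CPM in WT and at 0.06, 0.13 and 49.7 CPM in cKO, that is 823 counts against 1 to 5. The third chain, Col6a3, was at 0.75, 0.68 and 0.88 CPM in WT and at 0.69, 0.82 and 22.7 CPM in cKO. The TPM ratio of Col6a1 to Col6a2, neighbours 85161 bases apart on chromosome 10, was 0.05 to 0.61 in the other 5 libraries and 1.0 in cKO replicate 3, and the former rest on 1 to 5 counts of Col6a1.

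Of the other types, Col26a1 was at 2.89, 2.97 and 2.19 CPM in WT and at 1.62, 3.20 and 22.3 CPM in cKO. Col7a1, which forms the anchoring fibrils beneath the epidermis, was at 3.20, 2.11 and 2.56 CPM in WT and at 4.43, 2.89 and 22.0 CPM in cKO. For the short-chain collagen Col8a1, an endothelial and eye-matrix chain, there were 2, 0 and 0 counts in WT and 1, 0 and 443 counts in cKO. In each of these 3 genes only cKO replicate 3 was high. The remaining member that stood apart with almost no counts elsewhere was Col8a2, named after its values were seen, with 55 counts in cKO replicate 3 against 0 or 1.

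Levels compared between genes, as TPM, showed the same division. Over the 5 libraries other than cKO replicate 3, Col2a1 had a mean of 61.8 TPM, Col18a1 33.0, Col4a1 32.5, Col4a2 20.7, Col11a1 9.78 and Col4a5 8.85 TPM. Over these 5 libraries the ranges of Col18a1 and Col4a1 overlapped, as did those of Col11a1 and Col4a5. Col2a1 lay above Col18a1, and Col4a1 above Col4a2, in each of the 5 libraries. In cKO replicate 3 the order opened with Col3a1 at 72.1, Col1a2 at 61.4 and Col18a1 at 57.9 TPM. Collagens summed to 268, 192 and 206 TPM in WT and to 220, 215 and 596 TPM in cKO.

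The make-up of that sum was stable in 5 libraries. Fibrillar chains took 42.0% to 44.0% of collagen TPM there and 49.1% in cKO replicate 3. Basement membrane chains took 43.9% to 47.9% and then 25.6%, although their summed level was higher in cKO replicate 3 (153 TPM) than in the others (84.2 to 128 TPM). Beaded filament chains took 0.32% to 0.61% and then 10.4%, transmembrane chains 0.51% to 0.86% and then 1.20%, and FACIT chains 6.93% to 9.46% and 7.32%.

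**Figure D3:**
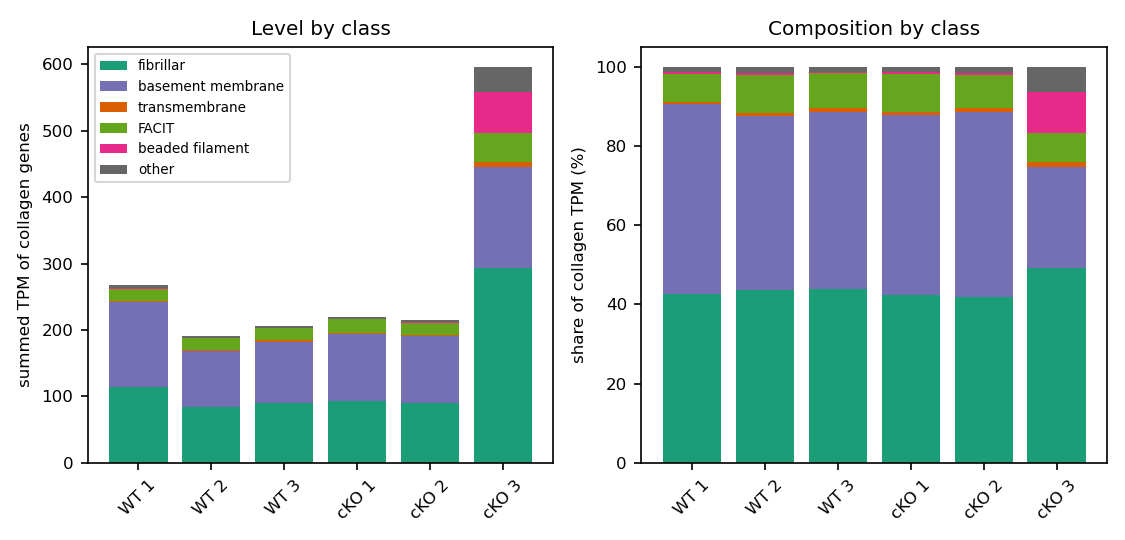
Summed TPM of the collagens in each library by class (left) and the same as a percentage of collagen TPM (right). The 5 libraries other than cKO replicate 3 sum to 192 to 268 TPM with nearly equal fibrillar and basement membrane parts, and cKO replicate 3 sums to 596 TPM with 25.6% from basement membrane chains.

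Genotype was then compared across all genes. Of the 44 collagens 33 passed the filter on low counts. The 11 not tested were Col10a1, Col13a1, Col19a1, Col28a1, Col5a3, Col6a1, Col6a4, Col6a5, Col6a6, Col8a1 and Col8a2, and Col6a1, Col8a1 and Col8a2 among them stood apart in cKO replicate 3 alone. By edgeR's quasi-likelihood test 0 collagens were higher and 0 lower in cKO at an adjusted p under 0.05, against 0.0% of the 13340 genes tested in each direction, and DESeq2 and limma-voom likewise called 0 collagens, DESeq2 against 0.015% of tested genes in each direction. At an unadjusted p under 0.05, 8 collagens were higher and 0 lower by edgeR, against 1.75% and 1.81% of all tested genes, and 4 were higher by DESeq2, against 1.11% of tested genes, and 0 by limma-voom, against 1.52%. DESeq2 gave no p-value to Col1a2, Col3a1 and Col6a2, which were among the 8 by edgeR. All 8 had their highest value in cKO replicate 3. The number was 0 when that library was left out, 0 when the one labelled WT replicate 2 was, and between 3 and 15 when any other was, and the number over all tested genes moved from 234 to between 121 and 571. With no filter on low counts, edgeR gave an unadjusted p under 0.05 to 11 collagens higher in cKO and to 0 lower, against 2.25% and 1.5% of 17328 genes, the additional 3 being Col6a1, Col8a1 and Col8a2, and again 0 passed the adjusted threshold.

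The fold changes of the connective tissue chains carried wide errors. On the log2 scale, cKO against WT, Col1a2 differed by 5.35 (SE 1.76), Col1a1 by 4.71 (SE 1.54) and Col3a1 by 4.06 (SE 1.47), the 3 smallest p-values among collagens with higher means in cKO. The lowest unadjusted p of a collagen was 0.0159, and the adjusted p of all 33 tested collagens was 1.0 by edgeR's quasi-likelihood test. Without cKO replicate 3 the same differences were 0.95 (SE 0.51), 1.09 (SE 0.55) and 0.06 (SE 0.21). For these chains the size of the fold thus depended on a single library.

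In the other direction the 3 smallest p-values belonged to Col11a1 at -0.14 (SE 0.09), Col2a1 at -0.15 (SE 0.11) and Col4a4 at -0.57 (SE 0.47). The most abundant tested members of the remaining classes were Col18a1 at 0.30 (SE 0.22), Col23a1 at 0.96 (SE 0.49), Col9a3 at 0.20 (SE 0.19), Col6a2 at 3.79 (SE 1.44) and Col26a1 at 1.75 (SE 0.86). None of these passed the test. Without cKO replicate 3 the signs of Col18a1 and Col26a1 turned, to -0.03 and -0.16.

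Over the tested members, the median log2 fold change was 0.43 for all collagens, 0.66 for fibrillar, 0.21 for basement membrane, 0.96 for transmembrane, 0.30 for FACIT, 3.59 for beaded filament and 1.82 for other collagens, while the median of all tested genes was 0.0019. The class medians rest on 10 fibrillar, 8 basement membrane, 3 transmembrane, 8 FACIT, 2 beaded filament and 2 other tested collagens. Without cKO replicate 3 these medians were -0.0047 for all collagens, -0.05 for fibrillar, -0.02 for basement membrane, 0.27 for transmembrane, 0.02 for FACIT, 0.02 for beaded filament and 0.16 for other collagens, beside 0.0046 for all tested genes. The number of collagens with a higher mean in cKO went from 27 of 33 to 16 of 33. Leaving out that library also left 0 collagens higher and 1 lower at an unadjusted p under 0.05, against 1.03% and 1.4% of all tested genes by edgeR's quasi-likelihood test. That 1 was Col4a4, with an unadjusted p of 0.0192 and an adjusted p of 1.0.

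Of the 33 tested collagens, 1 had all cKO libraries above all WT libraries, against 4.21% of all tested genes, and 0 had them below, against 4.83%. That gene, Col14a1, a FACIT collagen of tendon and skin named after its values were seen, was at 1.38, 1.12 and 1.38 CPM in WT and at 2.31, 1.51 and 4.46 CPM in cKO. An exact permutation test of 3 against 3 libraries cannot go below p = 0.1 for any single gene. Among tested genes, 11 of 33 collagens stood apart in cKO replicate 3, against 0.817% of all tested genes.

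**Figure D4:**
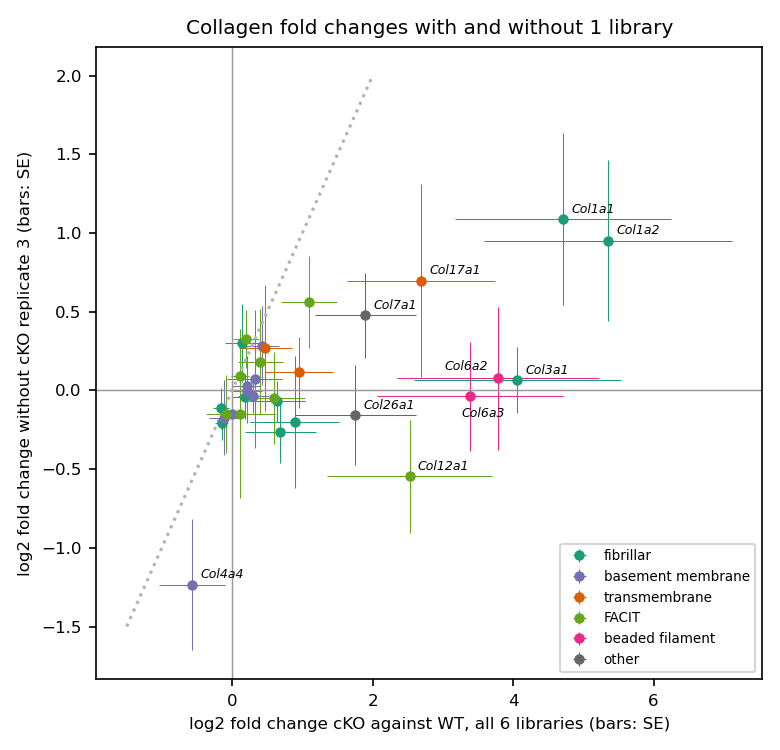
Log2 fold change of each tested collagen, cKO against WT, from all 6 libraries (horizontal axis) and without cKO replicate 3 (vertical axis), with bars of 1 SE from edgeR and colours for class; the dotted line marks equality and labelled points were chosen for their position. Col3a1, Col6a2 and Col6a3 lie far to the right and close to 0 on the vertical axis, and the basement membrane chains other than Col4a4 lie near the origin.

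Genes that make, modify and bind collagens were listed alongside. Of 31 genes of collagen synthesis and processing 27 were tested, and by edgeR's quasi-likelihood test 0 passed the threshold, with 3 higher and 0 lower at an unadjusted p under 0.05, against 1.75% and 1.81% of all tested genes. In each of those 3 all cKO libraries lay above all WT libraries. They were picked by p-value, which favours such genes, so the 4.21% of all tested genes is no like comparison. Bmp1 of the same list also separated, at 61.7, 56.9 and 56.7 CPM in WT and at 63.8, 62.1 and 63.8 CPM in cKO. Sparc, a collagen-binding matrix protein, was at 61.1, 72.2 and 70.1 CPM in WT and at 73.9, 90.5 and 173 CPM in cKO. P4ha2, a prolyl 4-hydroxylase subunit, was at 2.32, 2.29 and 2.19 CPM in WT and at 3.06, 2.70 and 3.92 CPM in cKO. The collagen chaperone Serpinh1 was at 132, 135 and 122 CPM in WT and at 143, 142 and 207 CPM in cKO. On the lower side the smallest p-values belonged to P3h1, a prolyl 3-hydroxylase, Pcolce2 and Loxl1, and cKO replicate 3 lay within the range of the other 5 libraries for each. Lox, the enzyme that crosslinks fibrils, was at 0.06 to 0.62 CPM and then 57.7 CPM, and it stood apart in cKO replicate 3 together with the propeptide-processing genes Pcolce (up to 1.38 and then 7.06 CPM) and Adamts2 (up to 0.62 and then 2.78 CPM). Those were the 3 of 31 genes of this list that stood apart there, against 2.28% of all listed genes.

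Receptors followed the same division. Of 10 collagen receptors 8 were tested, and by edgeR's quasi-likelihood test 0 passed the threshold. By the same test 0 had an unadjusted p under 0.05 in either direction, against 1.75% higher and 1.81% lower of all tested genes. With 8 genes, 0 is near those shares. The fibrillar collagen receptor Ddr2 was at 2.06 to 3.04 CPM in the other 5 libraries and 19.3 CPM in cKO replicate 3, and the integrin chain Itga11 at 0.38 to 0.69 and then 4.22 CPM. Ddr1, the epithelial and neural member of the same kinase family, was at 272 to 370 and then 261 CPM. The smallest p-values belonged to Itga10, Ddr2 and Itga2 among receptors with a higher mean in cKO and to Itga1, Ddr1 and Lair1 among those with a lower one, and of these only Ddr2 stood apart. In all, 2 of 10 receptors stood apart in cKO replicate 3, against 2.28% of all listed genes.

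Most non-collagen basement membrane genes did not stand apart in cKO replicate 3. Of 15, 3 did so there, against 2.28% of all listed genes. Of 15 such genes 12 were tested, and by edgeR's quasi-likelihood test 0 passed the threshold. By the same test 0 had an unadjusted p under 0.05, against 1.75% higher and 1.81% lower of all tested genes. With 12 genes, 0 is near those shares. Laminin chains Lama5, Lamb2, Lama1 and Lamc3 did not stand apart in any library. Lama3 was at up to 0.82 and then 9.53 CPM in cKO replicate 3, Lamb3 at up to 3 and then 25 counts, and Lama2 at up to 1.32 and then 5.13 CPM. Lama3 and Lamb3 encode chains of the epidermal laminin.

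Markers of cell types that a cortical dissection can hold were summed in each library. The cortex list (Emx1, Emx2, Pax6, Eomes, Tbr1 and Neurod6) was at 1764 to 2209 TPM in WT and at 2263, 1834 and 1696 TPM in cKO. Of its 6 genes 0 stood apart in cKO replicate 3, against 2.28% of all listed genes. The sum was lowest in cKO replicate 3. Pax6, a factor of radial glia, was at 160 to 226 CPM in the other 5 libraries and 175 CPM in cKO replicate 3. Emx1 and Emx2 also lay within the range of the other 5 there. Eomes (494 to 622 and then 424 CPM), Tbr1 (425 to 555 and then 412 CPM) and Neurod6 (772 to 1009 and then 738 CPM) were lowest in that library. The labelled tissue thus had its defining markers in every library.

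A pair of lists stood apart in the same library as the connective tissue collagens. Both lists were chosen with earlier results of these data known, so their counts describe that library and are not a test. The epidermis list was at 4.35 to 5.46 TPM in WT and at 5.79, 3.89 and 396 TPM in cKO. In cKO replicate 3, 12 of its 12 genes were at least 3 times higher than elsewhere, against 2.28% of all listed genes. Krt5, the keratin of basal epidermis, had 0 or 1 counts in the other 5 libraries and 2153 counts there, and Dsg3 had 0 and 24. The fibroblast and meninges list was at 22.1 to 24.0 TPM in WT and at 22.4, 25.97 and 223 TPM in cKO, and 7 of its 12 genes stood apart. Twist2, a factor of the dermis, had 0 counts in the other 5 libraries and 353 counts in cKO replicate 3, and Lum had up to 1 and then 618 counts. Prrx1, Prrx2, Foxc1, Foxc2 and Foxd1 did not stand apart, and Foxc1 and Foxc2, factors that define the meninges, were at 18 and 1 counts in that library. The part of these cells in the collagen values was not tested.

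The remaining lists did not separate that library as widely. The endothelium list was at 55.6 to 84.1 TPM in WT and at 66.6, 62.1 and 82.1 TPM in cKO, with 0 of 9 genes apart. WT replicate 1, which had the highest Col4a1 and Col4a2 after cKO replicate 3, had the highest endothelial sum. The pericyte list was at 51.9 to 73.8 TPM in WT and at 60.2, 64.4 and 67.5 TPM in cKO, with 1 of 7 genes apart (Anpep). Over all listed genes the share apart in cKO replicate 3 was 2.28%. Cartilage and bone markers summed to 0.74 to 1.16 TPM in WT and to 0.93, 1.03 and 2.23 TPM in cKO, with 7 of 9 genes under 10 counts everywhere. Of the muscle list 5 genes were found, each under 10 counts everywhere, at 0.39 to 0.54 TPM in WT and 0.51, 0.98 and 1.33 TPM in cKO. The choroid plexus list was at 1.06 to 4.50 TPM in WT and at 2.42, 4.24 and 3.23 TPM in cKO, with Ttr at 2 counts or fewer.

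**Figure D5:**
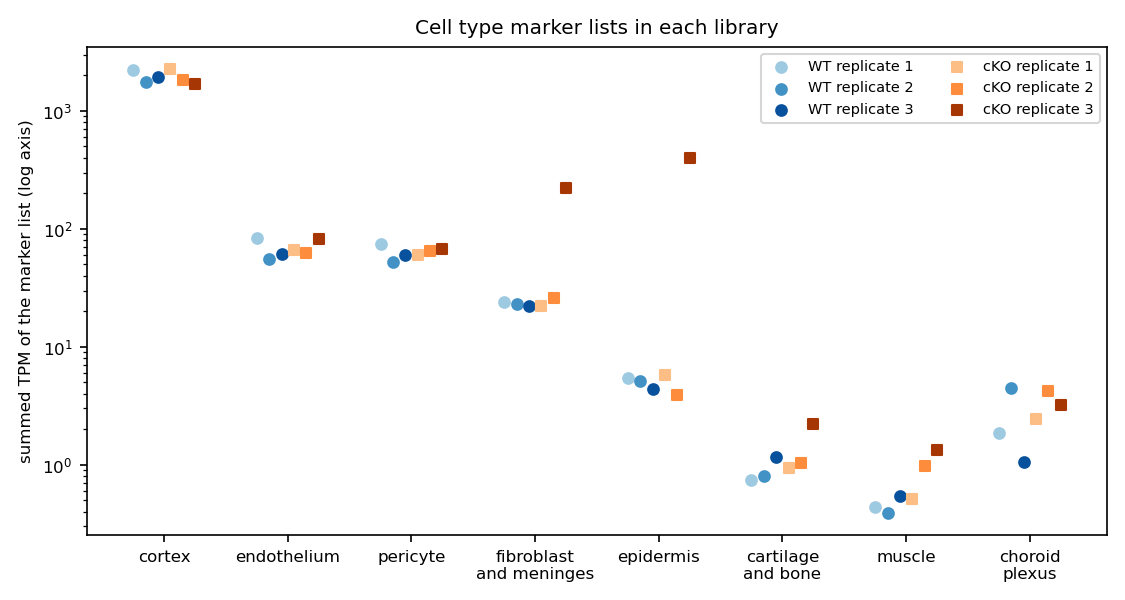
Summed TPM of 8 cell type marker lists in each library (log axis; circles WT, squares cKO). The epidermis list reaches 396 TPM and the fibroblast and meninges list 223 TPM in cKO replicate 3, far above their levels in the other 5 libraries, while the cortex, endothelium and pericyte lists differ little between libraries.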

How the data were processed

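Cortical RNA was extracted with Trizol by the authors, made into mRNA libraries and sequenced on a DNBSEQ platform. The submitters' processing notes name HISAT2 2.2.1, Bowtie2 2.4.5, RSEM 1.3.1 and the builds GRCm38 and mm10. The authors deposited 1 table with estimated counts per gene that are not normalised for depth, of which 10.9% were not whole. The deposited TPM values are scaled by the authors for transcript length and to a common sum, and the deposited FPKM values for length and depth. FPKM was not used, nor were 6 columns of group averages. Groups and replicate numbers came from the sample titles.

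Estimated counts were rounded to whole numbers. Genes were kept by filterByExpr (minimum count 10, minimum total 15), which left 13340, and were compared by edgeR 4.0.16 (R 4.3.3) with TMM factors, the quasi-likelihood test, genotype as the only term and Benjamini-Hochberg adjustment with a threshold of 0.05. The common dispersion was 0.0169. For each log2 fold change, dividing its absolute value by the root of the F statistic gave the SE. TPM served to compare genes with each other, since it is scaled for length. Alternatives were DESeq2 1.42.0, limma-voom (limma 3.58.1), RLE factors, a filter of 10 counts in all libraries or none, a block for the replicate number, leaving out each library, limits of 2 and 5 times in place of 3 and of 5 and 20 counts in place of 10, and, chosen after the data were examined, a fit without cKO replicate 3 and the library labelled WT replicate 2. The test was tested on simulated data.

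Members and gene lists were chosen with earlier results of these data known. Values in every library are given for the 4 collagens with the highest mean TPM in each of the fibrillar, basement membrane and transmembrane classes and the 3 highest in each other class. That mean includes cKO replicate 3, so the choice leans towards members high in that library. Without it Col3a1 had a mean of 1.53 and Col1a2 of 0.70 TPM, below Col5a1 at 6.64 and Col11a2 at 4.48 TPM. Likewise Col12a1 fell from 4.41 to 1.06 and Col8a1 from 1.96 to 0.018 TPM. Fold changes are given for the 3 smallest p-values in each direction and for the most abundant tested member of each class. Of the collagen-related lists, genes are named that have the 3 smallest p-values in each direction or the 3 largest ratios of cKO replicate 3 to the other libraries. Neighbouring pairs were fixed by name. Others are said to be named after their values were seen. Sequences are those of RefSeq GRCm38.p6. The cortex marker list was used without 1 of its genes, which is not reported here.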

Additional observations from a re-analysis of the deposited data

How the results depend on the processing

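Of the 44 collagens 0 passed an adjusted p of 0.05 under each alternative run, and the lowest adjusted p of a collagen in any fit was 0.443, with the replicate block. DESeq2 gave 5 tested collagens no adjusted p, and its lowest was 0.936. Among these 5, Col1a2, Col3a1 and Col6a2 had no unadjusted p by DESeq2 either, so its count could not include them. The 8 collagens higher at an unadjusted p under 0.05 became 4 by DESeq2, 0 by limma-voom and 0 without cKO replicate 3 and the library labelled WT replicate 2 together. Leaving out 1 library gave 0 to 15, with 0 without cKO replicate 3, 15 without cKO replicate 1, 13 without cKO replicate 2, 5 without WT replicate 1, 3 without WT replicate 3 and 0 when the library labelled WT replicate 2 was omitted. The genes higher among all tested moved as well, from 234 to 138 without cKO replicate 3, 571 without cKO replicate 1, 333 without cKO replicate 2, 212 without WT replicate 1, 121 without WT replicate 3 and 195 when the library labelled WT replicate 2 was omitted. On the lower side leaving out 1 library gave 0 to 1 collagens, with 1 without cKO replicate 3.

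The same numbers mark libraries of both genotypes, but the series description does not say which of its 3 batches hold which libraries, and the deviations of same-numbered libraries correlated at 0.41, 0.31 and -0.02. Libraries numbered 1 and those numbered 2 thus varied together, and those numbered 3, with cKO replicate 3 among them, did not. With the batches not given, pairing could not be settled. Genotype was the only term of the main test, and the block is given as an alternative. The replicate block put 1 gene past the threshold in each direction, in place of 0, and at an unadjusted p under 0.05 gave 476 higher genes and 614 lower ones, in place of 234 and 242. DESeq2 called 2 higher and 2 lower, leaving out the library labelled WT replicate 2 called 1 and 1 (0 to 1 over all libraries left out), and leaving out that library and cKO replicate 3 called 1 and 1.

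Medians of the log2 fold change, cKO against WT, depended on cKO replicate 3. Without it and the library labelled WT replicate 2, they were -0.016 for all collagens, -0.025 for fibrillar, -0.10 for basement membrane and 0.20 for transmembrane collagens. Leaving out 1 library gave -0.0047 to 0.66 for all collagens, -0.055 to 1.01 for fibrillar, -0.019 to 0.32 for basement membrane and 0.27 to 1.28 for transmembrane collagens, the lowest value of each without cKO replicate 3. Col18a1 reversed to -0.033 without cKO replicate 3 (-0.033 to 0.46 with 1 library left out) and to -0.084 without both libraries, Col26a1 to -0.16 (-0.16 to 2.26) and -0.075, and Col9a3 to -0.0017 without cKO replicate 1 (-0.0017 to 0.33). The collagens with all cKO libraries above all WT libraries were 1 to 11 with 1 library left out (6 without WT replicate 1, 4 without WT replicate 3, 11 without cKO replicate 1, 5 without cKO replicate 2), and those below 0 to 2 (2 without cKO replicate 3) and 3 without both libraries. With fewer libraries, groups separate more easily. The counts of collagens standing apart in each library and of those present in all 6 stayed within 1.5 times of the values given under each alternative limit run.

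The 3-count levels cover counting error only. The 11 collagens below the filter had few counts in most libraries, and with no filter 3 of them, Col6a1, Col8a1 and Col8a2, had an unadjusted p under 0.05 (lowest adjusted p of the 11 by edgeR 0.974), each high in cKO replicate 3 alone.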
